A study of Homo sapiens with 54 samples.

Results

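Transcript levels of 8 genes of cholesterol synthesis and its control by SREBP-2 were followed in a pair of triple negative breast cancer (TNBC) lines treated with the PARP inhibitor olaparib, with cisplatin (CDDP), or with both. The 8 genes, HMGCS1, IDI1, FDFT1, SQLE, LSS, DHCR7, INSIG1 and SREBF2, were taken by symbol from the 27470 genes of the deposited table, and all 8 passed the filter on low values in both lines. SUM1315 is a BRCA1 mutant line and MDA-MB-468 is BRCA1 wild type. Each line gave 27 libraries, 3 for each of 9 conditions. Parental cells were left untreated, or were treated overnight with olaparib (8 µM for SUM1315, 3 µM for MDA-MB-468), with a lower or a higher CDDP dose (2 and 4 µM, or 1 and 2.5 µM), or with olaparib and either CDDP dose. Olaparib resistant (OlaR) derivatives, selected by long exposure to rising olaparib, were held in 25 µM (SUM1315) or 15 µM (MDA-MB-468) olaparib throughout, alone or with the same CDDP doses. Every OlaR library therefore carried the drug as well as the resistance, and no drug-free OlaR cells were analysed here, so these cannot be told apart in any comparison with parental cells. Doses differ between the lines, so their values are set side by side, and the lines are tested against each other only for the difference of their changes.

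Cholesterol is built from acetyl-CoA through mevalonate, isoprenoid units and squalene, which is oxidised, cyclised and then trimmed to cholesterol in the endoplasmic reticulum. SREBP-2, the product of SREBF2, is a transcription factor held in that membrane while sterols are plentiful. When sterols fall, its escort protein SCAP carries it to the Golgi, where it is cut, and the released part enters the nucleus and raises the genes of this pathway and of sterol uptake. INSIG1 retains the SCAP and SREBP-2 complex in the endoplasmic reticulum and is itself a target, so it closes a feedback loop. Control acts on the protein, which a transcript count does not measure.

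The upstream sequence of 3 of the genes is shown because SREBP-2 acts at such sites and because INSIG1 and DHCR7 rose in SUM1315 whereas SREBF2 did not. Sequences are the 250 bases before the transcript start in RefSeq (GRCh38.p14), 5′ to 3′ on the gene's strand, for INSIG1 at chr7:155297628-155297877 (plus strand), DHCR7 at chr11:71448394-71448643 (minus strand, the first of 2 listed starts) and SREBF2 at chr22:41832855-41833104 (plus strand). Capitals mark TCACNCCA (a form of the sterol regulatory element), CCAAT (the NF-Y box) and GGGCGG (the Sp1 box) on either strand, and adjoining boxes can overlap.
INSIG1: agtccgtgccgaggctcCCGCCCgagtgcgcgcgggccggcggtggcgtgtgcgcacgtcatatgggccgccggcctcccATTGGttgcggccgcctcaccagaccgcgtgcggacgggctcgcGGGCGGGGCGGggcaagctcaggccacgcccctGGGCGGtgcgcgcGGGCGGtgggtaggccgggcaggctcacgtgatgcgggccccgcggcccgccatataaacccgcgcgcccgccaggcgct
DHCR7: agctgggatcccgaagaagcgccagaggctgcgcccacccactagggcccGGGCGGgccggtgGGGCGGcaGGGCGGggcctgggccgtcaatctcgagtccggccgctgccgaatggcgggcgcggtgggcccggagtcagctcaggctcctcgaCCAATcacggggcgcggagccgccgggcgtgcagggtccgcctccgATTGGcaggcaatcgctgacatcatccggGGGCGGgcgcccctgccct
SREBF2: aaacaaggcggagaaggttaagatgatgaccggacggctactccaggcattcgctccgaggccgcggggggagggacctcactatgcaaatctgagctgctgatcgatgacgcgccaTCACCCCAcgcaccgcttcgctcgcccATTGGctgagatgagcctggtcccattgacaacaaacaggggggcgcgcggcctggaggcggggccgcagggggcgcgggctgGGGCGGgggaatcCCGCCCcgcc
INSIG1 held 5 GGGCGG boxes and 1 CCAAT box, DHCR7 held 4 and 2 at the start shown, and SREBF2 held 2 and 1 together with the only TCACNCCA match. The other listed start of DHCR7 had no match to any of these motifs. Of the 8 genes, 6 were matched to 10 promoter entries. CCAAT occurred in 7 of the 10 entries and GGGCGG in 9, against 32.0% and 42.6% of all 35116 entries of the same length. TCACNCCA occurred in 1 of the 10 entries and in 3.2% of all entries. These matches describe the letters in this window and say nothing of whether a factor binds there.

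In GENCODE on GRCh38, the build of the deposited files, the genes lie on chromosome 5 at 43287470 to 43313512 (HMGCS1), 10 at 1039152 to 1049119 (IDI1), 8 at 11795573 to 11839395 (FDFT1) and 124998497 to 125022283 (SQLE), 21 at 46188141 to 46228824 (LSS), 11 at 71428193 to 71452868 (DHCR7), 7 at 155297776 to 155310235 (INSIG1) and 22 at 41833105 to 41907306 (SREBF2). The libraries read the 3′ end of polyadenylated RNA, which places most reads in the last exon. A non-coding gene on the opposite strand overlaps the last exon of HMGCS1, IDI1 and LSS. For IDI1 that gene, IDI2-AS1, reached at most 3.21 adjusted counts in any library. Whether reads were counted by strand is not given in the sources used here, so for HMGCS1 and LSS reads from the opposite strand cannot be told apart.

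Values are counts that the authors adjusted to a common library size, computed here from recovered reads as 5585170. They are not compared between genes. Recovered library sizes ran from 4977284 to 9268162 reads in parental and from 2070301 to 4676284 in OlaR libraries. EPCAM, an epithelial marker, averaged 3014 in untreated MDA-MB-468 and 0.684 in untreated SUM1315, and VIM, a mesenchymal marker, averaged 35.3 and 11980. In OlaR SUM1315 cells 3 of the 4 mesenchymal markers listed were lower than in untreated ones (28.7% of all genes were), namely VIM (-0.38 ± 0.08), CDH2 (-1.44 ± 0.13) and ZEB1 (-1.75 ± 0.15), and FN1 was higher (0.29 ± 0.11, log2 scale). The summed list of 5 fibroblast markers ran from 859 to 937 in untreated and from 134 to 213 in OlaR SUM1315 libraries. In OlaR MDA-MB-468 cells, ESR1 was higher than in untreated ones (1.76 ± 0.21) and ERBB2 lower (-1.53 ± 0.40). PGR, the other receptor listed, did not pass the filter. The part of these marker changes in the OlaR results was not tested. The 3 untreated SUM1315 libraries stood apart from the rest of their line, with 16036 to 17633 genes at a value of 1 or more, against 14410 to 15386 in the other 24. CD14, a myeloid marker, averaged 423 in them and 16.2 to 143 in the other SUM1315 conditions. The other leukocyte markers listed were PTPRC, at 2.66 to 4.13 in these libraries, and CD3E, which had no read there. The summed list of 3 ran from 404 to 461 in untreated SUM1315 libraries and from 9.12 to 166 in the others of that line. The part of this in the comparisons with untreated SUM1315 cells was not tested. Lower CD14 was not particular to SUM1315. In MDA-MB-468 it was also below untreated with olaparib (-1.24 ± 0.44, adjusted p = 0.0364) and in OlaR cells (-3.70 ± 0.44, adjusted p = 4.97e-10). Neither CDDP dose alone gave a call for it there. In RNA from whole cultures, fewer cells of a type and less RNA per cell cannot be told apart.

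**Figure D1:**
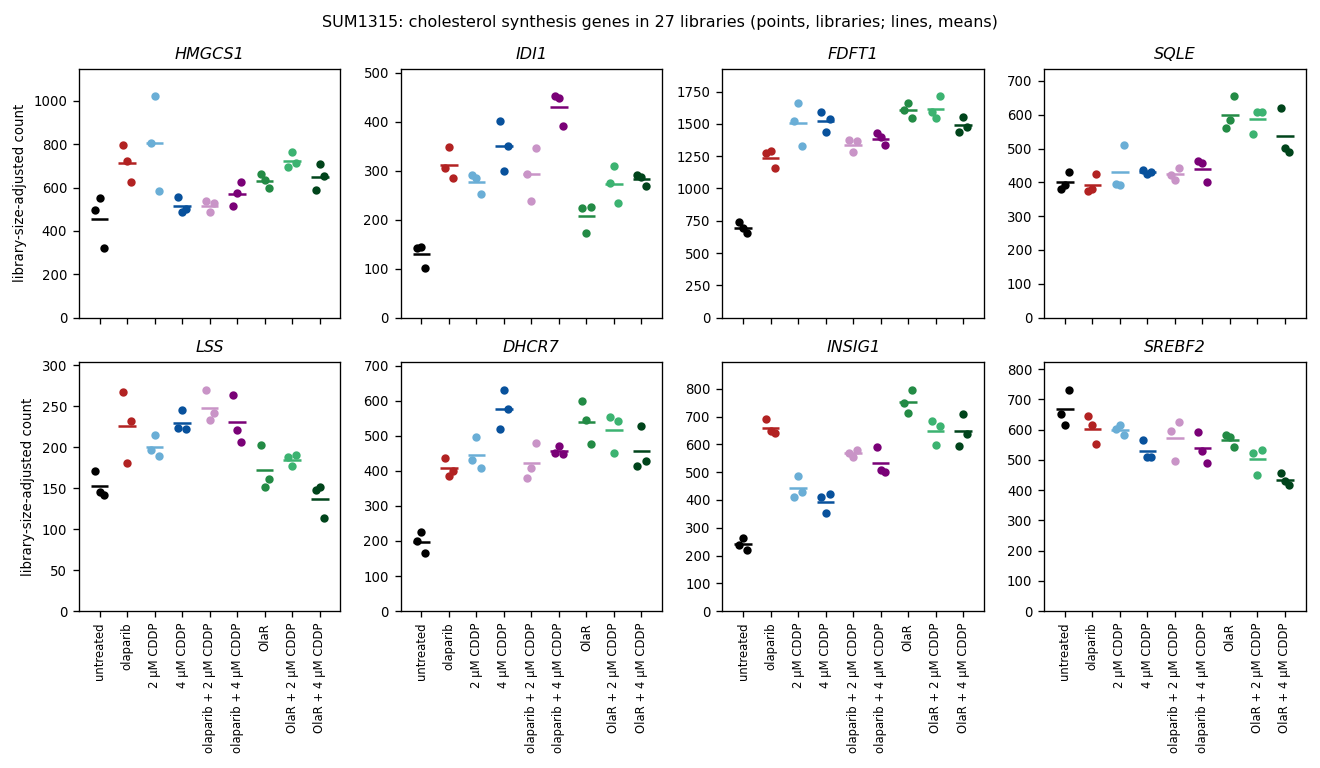
Library-size-adjusted counts (y axes, from 0) of the 8 genes in the 27 SUM1315 libraries, by condition (x axes); points are libraries and lines are means of 3. For IDI1, FDFT1, INSIG1 and DHCR7 all 24 treated or OlaR libraries lie above the 3 untreated ones.

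In SUM1315, most of the 8 genes were lowest in untreated cells and higher after either drug and in OlaR cells. IDI1, FDFT1, INSIG1 and DHCR7 were above the highest untreated library in all 24 other libraries, a separation that 5.96% of the 13130 tested genes showed. HMGCS1 was above it in 18 of 24, LSS in 19 and SQLE in 14, whereas SREBF2 was below the lowest untreated library in 22. With limma at an adjusted p of at most 0.05, olaparib raised 6 of 8 (median log2 fold change 0.75; 18.9% of all genes were higher), the lower CDDP dose raised 6 (0.85; 19.4%) and OlaR cells had 6 higher (0.63; 26.0%). The higher CDDP dose raised 5 (22.2% higher) and lowered SREBF2 (21.7% lower), with a median of 0.65. The median over all genes lay between -0.03 and 0.02 in these comparisons. All share the same 3 untreated libraries, so they are not independent of each other.

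HMGCS1, the synthase that makes HMG-CoA, measured 496, 551 and 323 in untreated SUM1315 libraries. It measured 795, 722 and 625 with olaparib, 808, 1021 and 585 with 2 µM CDDP, and 661, 633 and 600 in OlaR cells. These 3 conditions lay above all untreated libraries, and the log2 fold changes were 0.67 ± 0.15 (SE, adjusted p = 0.00071), 0.81 ± 0.15 (adjusted p = 8.02e-05) and 0.50 ± 0.15 (adjusted p = 0.00591). Without untreated replicate 3 the OlaR change was 0.27 (adjusted p = 0.113), so that call rested on this library. With 4 µM CDDP the values of 555, 489 and 502 overlapped the untreated ones, and the log2 fold change of 0.21 had a 95% interval from -0.10 to 0.52. IDI1, the isomerase that activates the isoprenoid unit, measured 142, 145 and 102 untreated and 305, 348 and 285 with olaparib. With 4 µM CDDP it measured 402, 300 and 351. Those were changes of 1.28 ± 0.15 (adjusted p = 3.95e-08) and 1.44 ± 0.15 (adjusted p = 2.3e-09) on the log2 scale. The 3 OlaR libraries, at 223, 174 and 227, lay between the untreated and the olaparib-treated ones.

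FDFT1, squalene synthase, commits the pathway to sterols. It measured 741, 698 and 655 in untreated SUM1315 cells and 1272, 1289 and 1157 with olaparib. With 2 and 4 µM CDDP it reached 1522, 1660 and 1329, and 1594, 1436 and 1542. OlaR cells gave 1611, 1666 and 1547. The gap to untreated cells was wide in every condition, with log2 fold changes of 0.83 ± 0.09 (olaparib), 1.10 ± 0.09 (lower CDDP), 1.13 ± 0.09 (higher CDDP) and 1.20 ± 0.09 (OlaR). The largest of the 4 adjusted p-values was 2.51e-09. SQLE, squalene epoxidase, behaved otherwise. It measured 382, 391 and 432 untreated, 375, 381 and 424 with olaparib, and 438, 425 and 432 with 4 µM CDDP, so these groups overlapped. The log2 fold changes were -0.03 (95% interval -0.26 to 0.19) and 0.10 (-0.12 to 0.33). In OlaR cells it measured 562, 584 and 654, all above the untreated libraries, a change of 0.58 ± 0.11 (adjusted p = 4.85e-05).

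LSS, lanosterol synthase, closes the sterol rings. It measured 171, 145 and 142 untreated and 267, 181 and 232 with olaparib, and 223, 245 and 222 with 4 µM CDDP. Both groups lay above the untreated one, with log2 fold changes of 0.55 ± 0.15 (adjusted p = 0.00416) and 0.59 ± 0.15 (adjusted p = 0.00173). The call with 2 µM CDDP (0.39 ± 0.15, adjusted p = 0.0419) was lost with edgeR and with DESeq2 on recovered reads, when only the 2 groups were fitted, and without CDDP replicate 1 or 2 or untreated replicate 2 or 3 (0.34 to 0.41). OlaR libraries at 203, 152 and 161 overlapped the untreated ones (0.16, 95% interval -0.14 to 0.47). DHCR7, which performs the last step towards cholesterol in one branch, measured 200, 227 and 165 untreated. It rose to 436, 386 and 399 with olaparib, to 518, 630 and 577 with 4 µM CDDP, and stood at 599, 545 and 476 in OlaR cells. All 9 values lay above the untreated range. The log2 fold changes were 1.05 ± 0.13 (adjusted p = 5.84e-08), 1.55 ± 0.13 (adjusted p = 1.01e-11) and 1.46 ± 0.13 (adjusted p = 1.82e-11), the second being 2.93-fold.

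INSIG1, the sterol-regulated retention protein, differed 3.13-fold between its highest and lowest SUM1315 condition mean, second to IDI1 at 3.33-fold. It measured 237, 262 and 221 untreated, 692, 648 and 640 with olaparib, and 748, 715 and 796 in OlaR cells. It measured 410, 488 and 430 with 2 µM and 410, 352 and 420 with 4 µM CDDP. No library of any of these groups overlapped the untreated ones, and those with olaparib or OlaR lay above those with CDDP alone. The log2 fold changes were 1.46 ± 0.10 (olaparib, adjusted p = 6.77e-13), 0.88 ± 0.10 and 0.71 ± 0.10 (lower and higher CDDP) and 1.65 ± 0.10 (OlaR, adjusted p = 6.94e-15), the last being 3.13-fold. SREBF2 went the other way. It measured 653, 617 and 731 untreated, 644, 615 and 552 with olaparib, and 567, 511 and 509 with 4 µM CDDP. The last group lay below every untreated library and fell by 0.33 on the log2 scale (SE 0.10, adjusted p = 0.00961), or by 0.26 without untreated replicate 3 (adjusted p = 0.0582). The change in OlaR cells, -0.23, had a 95% interval from -0.44 to -0.02 and an adjusted p of 0.0592.

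The study compared combined treatment with either drug alone, and OlaR cells with olaparib-treated parental cells. These comparisons leave out the untreated libraries. In SUM1315, adding CDDP to olaparib gave 0 of 8 calls at the lower dose (3.76% of all genes called) and 0 at the higher (8.45%) with limma. At an unadjusted p under 0.05 there were 2 and 3, and edgeR called 0 and 1 and DESeq2 0 and 2. The 1 edgeR call was IDI1, which went from 305, 348 and 285 with olaparib to 452, 448 and 392 with olaparib and 4 µM CDDP, without overlap (log2 fold change 0.46 ± 0.15, adjusted p = 0.0515 with limma). Set against 4 µM CDDP alone, the combination raised 1 gene (6.32% of genes were higher). That was INSIG1, at 592, 507 and 502 against 410, 352 and 420 (0.44 ± 0.10, adjusted p = 0.00397).

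The change with 4 µM CDDP in SUM1315 was then compared with and without olaparib. Against untreated cells 4 µM CDDP raised DHCR7 by 1.55, but in the presence of olaparib the step was 0.17 ± 0.13. The difference between the 2 steps was lower for 4 of 8 genes (11.6% of all genes were lower). It was -1.38 ± 0.18 for DHCR7 (adjusted p = 8.64e-07), -1.02 ± 0.15 for INSIG1 (adjusted p = 4.25e-06), -0.98 ± 0.21 for IDI1 (adjusted p = 0.00102) and -0.96 ± 0.12 for FDFT1 (adjusted p = 4.41e-07). The 3 untreated libraries, which stood apart, enter this test, and their part in it was not tested.

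Between OlaR and olaparib-treated parental SUM1315 cells, members were called in both directions, and the count of lower ones was near the share of all genes. Higher in OlaR were 3 (21.6% of all genes were higher), namely SQLE (0.61 ± 0.11, adjusted p = 3.34e-05), DHCR7 (0.40 ± 0.13, adjusted p = 0.00944) and FDFT1 (0.38 ± 0.09, adjusted p = 0.000472). Lower were 2 (25.7% lower), IDI1 (-0.59 ± 0.15, adjusted p = 0.00162) and LSS (-0.39 ± 0.15, adjusted p = 0.0325). The LSS call was lost with DESeq2, when only the 2 groups were fitted, and without OlaR replicate 2 or 3 or olaparib replicate 1 or 3 (-0.26 to -0.36). The DHCR7 call was lost without OlaR replicate 1 (0.32, adjusted p = 0.065). All 3 OlaR values of SQLE, from 562 to 654, lay above the olaparib values of 375 to 424. In OlaR cells, the lower CDDP dose gave 0 calls with limma (1.42% of all genes called; 2 members at an unadjusted p under 0.05, 0 with edgeR and 0 with DESeq2). The higher dose raised IDI1 (0.45 ± 0.15, adjusted p = 0.0358; 7.14% of genes were higher), a call lost without OlaR replicate 2 or any of the 3 treated libraries (0.33 to 0.49), and lowered SREBF2 (-0.38 ± 0.10, adjusted p = 0.00976; 9.63% lower). SREBF2 measured 582, 577 and 543 in OlaR and 457, 430 and 417 with added 4 µM CDDP. Whether the higher dose acted differently in OlaR and in olaparib-treated parental cells was tested directly, with 0 calls by limma (6.41% of all genes called), 3 at an unadjusted p under 0.05, and 0 by edgeR and DESeq2.

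**Figure D2:**
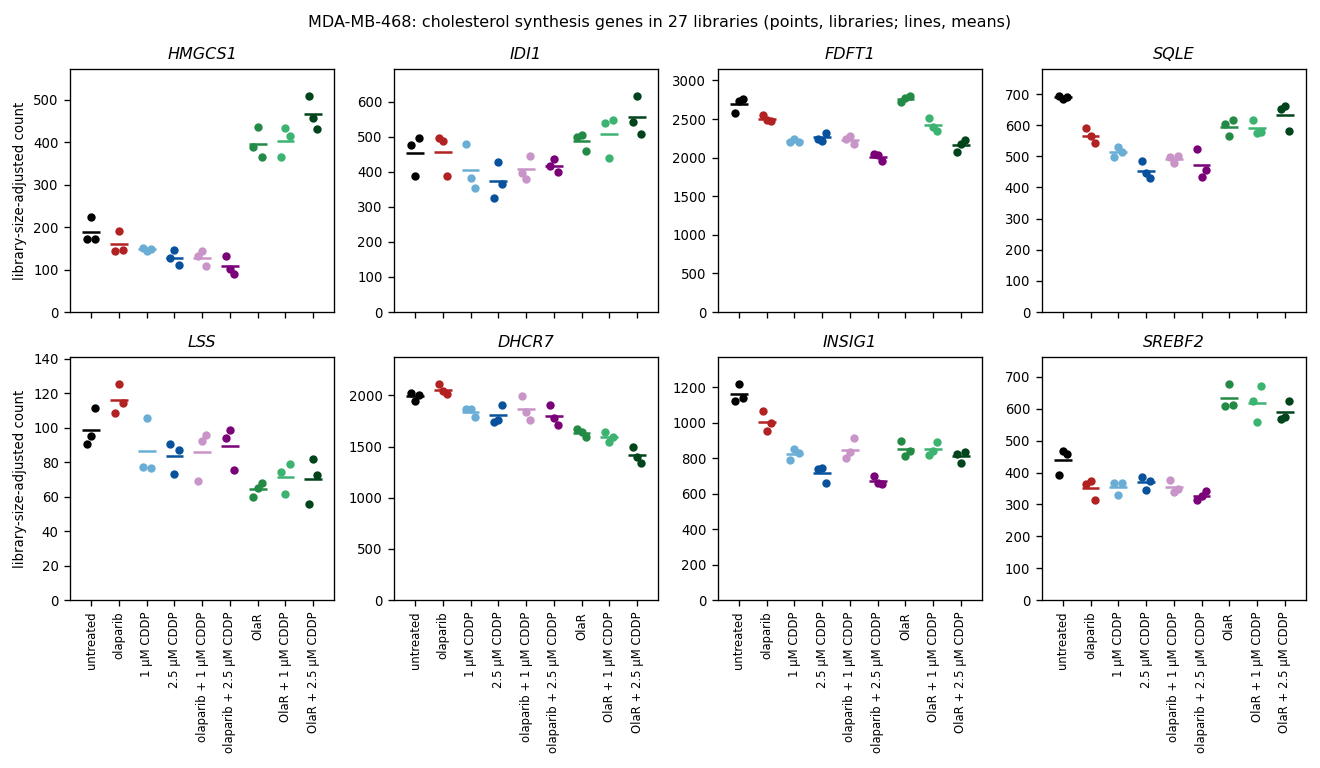
Library-size-adjusted counts (y axes, from 0) of the 8 genes in the 27 MDA-MB-468 libraries, by condition (x axes); points are libraries and lines are means of 3. HMGCS1 and SREBF2 are highest in the 9 OlaR libraries, and SQLE and INSIG1 are highest in the 3 untreated ones.

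In MDA-MB-468, no member was called higher with either drug in parental cells and several were called lower, by small amounts. LSS and DHCR7 had their highest means with olaparib, 116 and 2054 against 99.0 and 1991 untreated, without a call. SQLE and INSIG1 were below the lowest untreated library in all 24 other libraries, which 3.15% of the 13008 tested genes were. Olaparib lowered 3 of 8 (9.11% of all genes were lower), the lower CDDP dose 4 (9.41%) and the higher dose 6 (11.8%). Their median log2 fold changes were -0.15, -0.29 and -0.27, beside 0.01, -0.01 and 0.01 over all genes. None of these falls reached 2-fold.

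INSIG1 measured 1123, 1218 and 1141 in untreated MDA-MB-468 libraries. Olaparib gave 1065, 955 and 998, and CDDP gave 792, 854 and 831 at 1 µM and 740, 743 and 660 at 2.5 µM. The groups were ordered without overlap, and the falls were 0.21, 0.49 and 0.70 on the log2 scale (SE 0.07 each). Adjusted p-values were 0.0214, 1.47e-07 and 7.92e-12. The olaparib call was lost without olaparib replicate 2 or 3 or untreated replicate 2 (-0.17 to -0.20). SQLE went from 694, 685 and 691 to 591, 566 and 542 with olaparib and to 485, 446 and 432 with 2.5 µM CDDP, log2 fold changes of -0.29 ± 0.08 (adjusted p = 0.00382) and -0.60 ± 0.08 (adjusted p = 1.31e-08). FDFT1 measured 2582, 2729 and 2758 untreated and 2248, 2211 and 2326 with 2.5 µM CDDP, a change of -0.25 ± 0.05 (adjusted p = 0.000106). HMGCS1 fell from 172, 225 and 172 to 127, 147 and 111 (-0.56 ± 0.13, adjusted p = 0.00124). SREBF2 went from 391, 467 and 459 to 366, 374 and 314 with olaparib (-0.32 ± 0.09, adjusted p = 0.00491), a call lost without olaparib replicate 3 (-0.24). It was also called lower with both CDDP doses, but not at 1 µM without CDDP replicate 2 or untreated replicate 2 (-0.25 and -0.26). At 2.5 µM its change of -0.25 (adjusted p = 0.0312) was not called when only the 2 groups were fitted, nor without CDDP replicate 2 or 3 or untreated replicate 2 or 3 (-0.20 to -0.26). The IDI1 change of -0.28 (adjusted p = 0.0451) was not called with the 2 groups alone, with no filter, with a replicate block (adjusted p = 0.0507), or without CDDP replicate 1 or 3 or untreated replicate 1 or 3 (-0.19 to -0.27). Leaving out any 1 library of this comparison left 4 or 5 of the 6 calls. DHCR7 and LSS were not called in these 3 comparisons, with 95% intervals for 2.5 µM CDDP of -0.26 to -0.03 and -0.60 to 0.12. The DHCR7 change of -0.14 was called with edgeR and with DESeq2.

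CDDP added to olaparib lowered 2 members at 1 µM (2.97% of all genes were lower) and 5 at 2.5 µM (13.1%). At 2.5 µM, INSIG1 fell from 1065, 955 and 998 to 700, 662 and 656 (-0.58 ± 0.07, adjusted p = 1.36e-09). HMGCS1 fell by 0.56 (SE 0.13, adjusted p = 0.00102), FDFT1 by 0.31 (SE 0.05, adjusted p = 1.7e-06), SQLE by 0.27 (SE 0.08, adjusted p = 0.00614) and DHCR7 by 0.20 (SE 0.06, adjusted p = 0.00784). Of these calls, that of SQLE was lost without combination replicate 2 (-0.21) and that of DHCR7 without combination replicate 3 (-0.16). At 1 µM the calls of INSIG1 and FDFT1 were both lost when only the 2 groups were fitted, INSIG1 also without combination replicate 1 or 2 or olaparib replicate 1 (-0.20 to -0.23), and FDFT1 without combination replicate 1 or 3 or olaparib replicate 1 or 2 (-0.15 to -0.17). Against 2.5 µM CDDP alone the combination lowered 1 gene (7.30% lower), FDFT1, from 2248, 2211 and 2326 to 2045, 2034 and 1959 (-0.17 ± 0.05, adjusted p = 0.0175), a call lost without replicate 3 of either group (-0.15). The step produced by 2.5 µM CDDP was less negative with olaparib than without it for 1 gene (8.14% of all genes were higher), SQLE, by 0.34 ± 0.11 (adjusted p = 0.0188), which was lost without CDDP replicate 3 or combination replicate 1 (0.30 and 0.26).

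Between OlaR and parental MDA-MB-468 cells, members were called in both directions. Over all genes, 51.5% were called against olaparib-treated and 53.5% against untreated parental cells. The count of members higher than in untreated cells was near the share of all genes. HMGCS1 measured 389, 436 and 364 in OlaR, against 144, 190 and 145 with olaparib and 172, 225 and 172 untreated. Every OlaR library lay above every parental library. SREBF2 measured 610, 678 and 613 in OlaR, against 366, 374 and 314 with olaparib, again with no overlap. Against olaparib-treated parental cells the log2 fold changes were 1.31 ± 0.13 for HMGCS1 (2.49-fold, adjusted p = 4.7e-12) and 0.85 ± 0.09 for SREBF2 (adjusted p = 6.07e-12). Together with FDFT1 (0.14 ± 0.05, adjusted p = 0.0126), 3 members were higher (23.6% of all genes were higher). The 3 lower ones (27.9% lower) were LSS (-0.84 ± 0.18, adjusted p = 8.79e-05), DHCR7 (-0.33 ± 0.06, adjusted p = 2.79e-06) and INSIG1 (-0.24 ± 0.07, adjusted p = 0.00209). LSS measured 60.0, 65.0 and 67.7 in OlaR and 109, 125 and 114 with olaparib, which did not overlap. Against untreated parental cells 2 were higher (26.0% of genes) and 4 lower (27.5%), with SQLE at -0.22 ± 0.08 (adjusted p = 0.0143) joining the lower ones, though not without OlaR replicate 2 (-0.18).

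Adding CDDP to OlaR MDA-MB-468 cells lowered 1 member at 1 µM (2.91% of genes lower) and 2 at 2.5 µM (11.2%). FDFT1 measured 2722, 2776 and 2801 in OlaR, 2514, 2397 and 2347 with 1 µM and 2074, 2177 and 2227 with 2.5 µM CDDP. These 3 groups did not overlap, and the falls were 0.19 (SE 0.05, adjusted p = 0.014) and 0.36 (SE 0.05, adjusted p = 2.19e-07) on the log2 scale. The first call was lost when only the 2 groups were fitted and without CDDP replicate 2 or 3 or OlaR replicate 2 (-0.17 to -0.19). DHCR7 fell by 0.21 at 2.5 µM (SE 0.06, adjusted p = 0.00488). The higher CDDP dose lowered 3 genes less, or raised them more, in OlaR than in olaparib-treated parental cells (7.58% of all genes were higher in this test). These were HMGCS1 (0.80 ± 0.19, adjusted p = 0.002), INSIG1 (0.51 ± 0.10, adjusted p = 9.49e-05) and SQLE (0.35 ± 0.11, adjusted p = 0.0174), the last lost without replicate 2 of OlaR, of OlaR with CDDP or of the combination, or olaparib replicate 1 (0.30 to 0.32). In OlaR cells INSIG1 measured 822, 775 and 836 with CDDP against 896, 810 and 843 without it, and HMGCS1 stood at 510, 458 and 431.

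**Figure D3:**
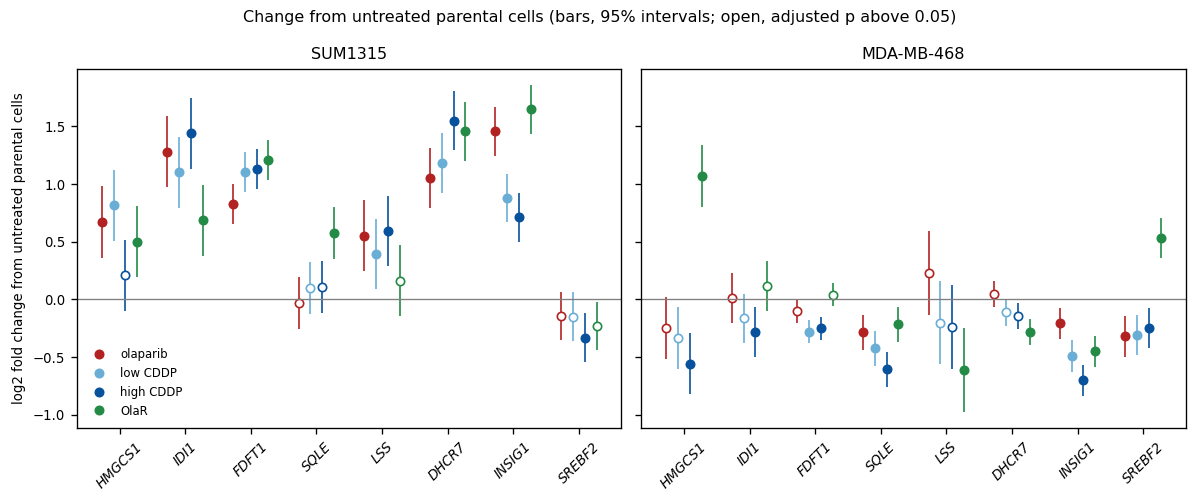
Log2 fold change from untreated parental cells (y axis) of the 8 genes (x axis) in SUM1315 (left) and MDA-MB-468 (right) for olaparib, the lower and higher CDDP dose, and OlaR; bars are 95% intervals and open points have an adjusted p above 0.05. In SUM1315, 6, 6, 5 and 6 genes are higher in these 4 comparisons, and in MDA-MB-468, 0, 0, 0 and 2.

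The changes from untreated cells differed between the lines. For the higher CDDP dose (4 µM in SUM1315, 2.5 µM in MDA-MB-468), the signed log2 change in SUM1315 minus that in MDA-MB-468 was above 0 for 7 of 8 genes (13.7% of all 14456 genes tested in both). For HMGCS1 and SQLE this came with a fall in MDA-MB-468 (-0.56 and -0.60) and no call in SUM1315 (0.21 and 0.10). The differences were 1.72 ± 0.20 for IDI1 (adjusted p = 3.35e-09), 1.69 ± 0.14 for DHCR7 (adjusted p = 2.36e-13) and 1.41 ± 0.11 for INSIG1 (adjusted p = 2.37e-13). SREBF2 was the exception, at -0.09 with a 95% interval from -0.35 to 0.17. For OlaR against untreated cells, the signed difference was above 0 for 6 genes (22.8%), led by INSIG1 at 2.10 ± 0.11 (adjusted p = 5.05e-20). INSIG1 was higher by 1.65 in SUM1315 and lower by -0.45 in MDA-MB-468, whereas LSS was not called in SUM1315 (0.16) and was lower by -0.61 in MDA-MB-468. For the other 2 the difference was below 0 (24.6% in that direction), SREBF2 at -0.76 ± 0.13 (adjusted p = 3.51e-06) and HMGCS1 at -0.57 ± 0.22 (adjusted p = 0.0299), the latter lost when only those groups were fitted and without any of 6 libraries (-0.41 to -0.53), namely OlaR replicate 3 and untreated replicates 1 and 2 of SUM1315 and OlaR replicate 2 and untreated replicates 1 and 3 of MDA-MB-468. The IDI1 difference in OlaR cells, 0.57 ± 0.20 (adjusted p = 0.0155), was 0.40 without SUM1315 untreated replicate 3 (adjusted p = 0.0917), and that of HMGCS1 with the higher CDDP dose went from 0.76 to 0.53 (adjusted p = 0.0595) without the same library. For CDDP added to OlaR cells, 0 of 8 differed between the lines with limma (5.44% of all genes called), 2 at an unadjusted p under 0.05, and 0 with edgeR and DESeq2. Line, dose and any batch of libraries cannot be told apart here.

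**Figure D4:**
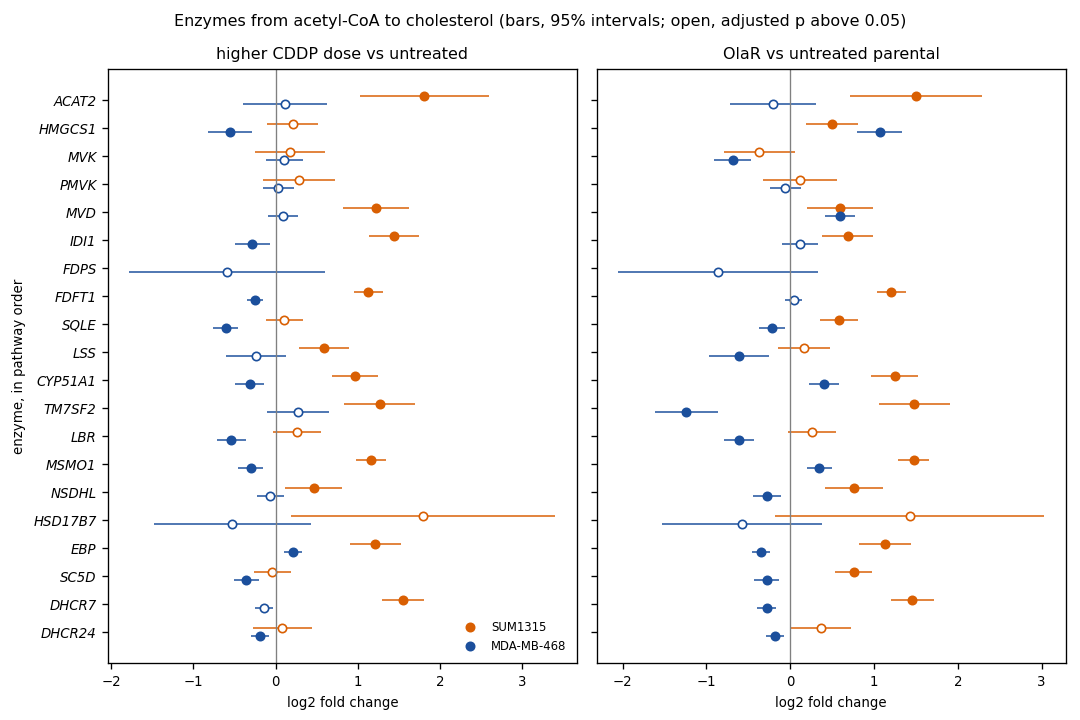
Log2 fold change (x axes) from untreated parental cells of 20 enzymes from acetyl-CoA to cholesterol (y axis, in pathway order) with the higher CDDP dose (left) and in OlaR cells (right), for SUM1315 and MDA-MB-468; bars are 95% intervals and open points have an adjusted p above 0.05. In SUM1315 none of the called enzymes is lower, and FDPS, not tested there, has 1 point per panel.

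The other enzymes of the pathway, a list of 14, showed a like division between the lines. In SUM1315, 13 were tested, and 9 rose with olaparib (18.9% of all genes were higher), 8 (19.4%) and 7 (22.2%) with the lower and higher CDDP dose, and 8 were higher in OlaR cells (26.0%), with none lower. Their median log2 fold changes were 0.62, 0.68, 0.96 and 0.76. MSMO1, a sterol methyl oxidase, rose by 1.45 ± 0.09 with olaparib and by 1.16 ± 0.09 with 4 µM CDDP, and CYP51A1, lanosterol demethylase, by 0.77 ± 0.14 and 0.96 ± 0.14. MVK and PMVK, the kinases of mevalonate, were not called in any of the 4. Adding 4 µM CDDP to olaparib gave 0 of 13 calls with limma, 3 at an unadjusted p under 0.05, 1 with edgeR and 0 with DESeq2. In MDA-MB-468, 14 were tested and 5 fell with 2.5 µM CDDP (11.8% of all genes were lower), among them LBR (-0.54 ± 0.09), while EBP rose by 0.22 ± 0.06 (13.4% higher). In OlaR MDA-MB-468 cells 7 were lower than untreated (27.5% of all genes) and 3, MVD, CYP51A1 and MSMO1, were higher (26.0%).

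Of 6 genes of sterol transport, 3 rose and 1 fell in SUM1315 with olaparib (18.9% of all genes were higher and 17.1% lower), and 3 rose and 1 fell with 4 µM CDDP (22.2% and 21.7%). STARD4, a sterol carrier, rose by 0.93 ± 0.19 (adjusted p = 0.000209) and 1.00 ± 0.19 (adjusted p = 5.92e-05). NPC1, which exports cholesterol from lysosomes, was the one that fell, by 0.54 (SE 0.20, adjusted p = 0.0375) and 0.65 (SE 0.20, adjusted p = 0.00992). The first of these calls was lost without olaparib replicate 1 or 3 or untreated replicate 2 or 3 (-0.43 to -0.52), and the second without CDDP replicate 3 (-0.52). In MDA-MB-468, 1 of the 6 rose with 2.5 µM CDDP, NPC2 at 0.45 ± 0.07 (adjusted p = 3.56e-06), and 1 fell, LPIN1 at -0.25 ± 0.09 (adjusted p = 0.0366). The LPIN1 call was lost without CDDP replicate 2 or untreated replicate 2 or 3 (-0.17 to -0.27). Of 8 genes of sterol sensing other than the members, 1 rose and 0 fell with olaparib in SUM1315 (18.9% and 17.1% of all genes). The 1 was SREBF1 (0.97 ± 0.21, adjusted p = 0.00041). In OlaR MDA-MB-468 cells 6 of the 8 were lower than in untreated cells (27.5% of all genes were), including MBTPS1, the first protease that cuts SREBP-2 (-1.21 ± 0.06, adjusted p = 1.11e-23), and SCAP (-0.22 ± 0.09, adjusted p = 0.033).

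Fatty acid synthesis, driven mainly by SREBP-1, was counted over 8 genes. In SUM1315, 2 rose and 3 fell with 4 µM CDDP (22.2% and 21.7% of all genes). In MDA-MB-468, 0 rose and 4 fell with 2.5 µM CDDP (13.4% and 11.8%), including SCD (-0.66 ± 0.05) and FASN (-0.53 ± 0.08). FASN was also lower in OlaR MDA-MB-468 cells (-1.41 ± 0.08, adjusted p = 7.7e-21). Of the side branches of mevalonate towards dolichol, ubiquinone and prenylated proteins, 7 of 8 listed genes were tested in each line. With 4 µM CDDP in SUM1315, 0 rose and 1, PDSS2, fell (22.2% and 21.7% of all genes). With 2.5 µM in MDA-MB-468, 1 rose and 1 fell (13.4% and 11.8%), so these counts were not above the shares of all genes by more than a single gene.

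Ordered by condition mean, untreated cells were the lowest of the 9 SUM1315 conditions for HMGCS1, IDI1, FDFT1, DHCR7 and INSIG1. INSIG1 had the clearest order in SUM1315, running from OlaR (753 ± 40.7, SD) through olaparib (660 ± 28.0) and 4 µM CDDP (394 ± 37.0) to untreated cells (240 ± 20.3), with 4 of its 8 neighbouring pairs of conditions overlapping. For HMGCS1, LSS and SREBF2 all 8 neighbouring pairs overlapped in SUM1315. In MDA-MB-468, HMGCS1 had the widest range, 4.31-fold from 108 ± 21.6 with olaparib and 2.5 µM CDDP to 466 ± 40.1 in OlaR cells with 2.5 µM CDDP, and its one gap lay between the OlaR conditions and the parental ones. For IDI1 and LSS all 8 pairs overlapped in that line.

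Among the 8 genes, the condition profiles were alike for some only. Over the 18 condition means, centred within each line, Pearson's r was 0.88 between FDFT1 and DHCR7, 0.76 between FDFT1 and INSIG1 and 0.81 between HMGCS1 and SREBF2. It was -0.47 between DHCR7 and SREBF2. The value for HMGCS1 and SREBF2 pools both lines. In MDA-MB-468 both genes were highest in the OlaR conditions. In SUM1315, untreated cells had the lowest mean of HMGCS1 (457) but the highest of SREBF2 (667). Against the mean profile of the 8, r ran from 0.21 (LSS and SREBF2) to 0.89 (FDFT1). The 5 other genes most like that mean profile, of 8284 compared, were MSMO1 (r = 0.942), ATP5A1 (0.877), PIMREG (0.871), MGST1 (0.868) and TMEM50A (0.865). MSMO1 averaged 291 ± 28.4 (SD) in untreated SUM1315 libraries and 652 to 806 over the other SUM1315 condition means, the highest being that of OlaR cells (806 ± 15.5). A low untreated SUM1315 mean was not particular to MSMO1. ATP5A1 averaged 679 there against 1081 to 1255 in the other conditions of that line, and PIMREG 17.1 against 58.0 to 80.8. MGST1 averaged 815 against 1415 to 1677, and TMEM50A 285 against 514 to 719. The part of the untreated SUM1315 libraries, which stood apart, in this likeness was not tested. The points share libraries and scaling, so these values are descriptions.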

How the data were processed

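RNA was read as 54 3′ mRNA libraries (QuantSeq), sequenced on an Illumina HiSeq and multiplexed in batches of 27. Which libraries shared a batch is not given in the sources used here. Per the labels, CASAVA 1.8.2, FastQC, STAR, HTSeq and edgeR were used with hg38, and the counting settings are not given. The deposited values are a signal, counts that the authors adjusted for library size, and they are not whole numbers. They were inverted to whole reads as edgeR pseudo-counts, which are adjusted by negative binomial quantiles within each condition (dispersion 0.01039). In this way 100% of the 1483380 values were given back within a relative tolerance of 1e-05. The library sizes of the inversion matched TMM sizes of the recovered reads, and the common size from these was 5585170 reads. The authors' tables of log2 fold changes, p-values and FDR against untreated parental cells were not used. Rows with repeated names, 4 in all, were left out.

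Adjusted values were tested on the log2(value + 1) scale with limma 3.58.1 in R 4.3.3 (intensity trend, 1 fit of the 27 libraries of each line and 1 of all 54 for differences between lines). Genes were kept where 3 or more libraries reached a value of 10. A call is a Benjamini-Hochberg adjusted p of at most 0.05 over all genes tested, and all adjusted p-values in the text without another tool's name are from limma. Fold changes on this scale understate those of low genes. edgeR 4.0.16 and DESeq2 1.42.0 were run on the recovered reads as alternatives, beside another pseudocount, no filter, the compared groups alone, a replicate block, a 2-fold limit and leaving out each library. The procedure was also run on reads simulated with a fixed dispersion and scaled linearly, unlike the deposited values. No result here rests on that run. Nothing says that the 3 libraries of a condition came from separate cultures, so p-values measure the spread between these libraries, which may be technical.

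The 8 members and the pathway lists were chosen with earlier results of these data known, and some genes of the lists are not reported here. All members are named. From the lists, those with the smallest p in the comparisons described were named, with a few others chosen after their values were seen. Genes most alike are the 5 with the highest Pearson correlation to the mean profile of the members over 18 condition means, among genes with a mean value of at least 50 in each line.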

Additional observations from a re-analysis of the deposited data

Results flagged for a closer look

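Each difference below was tested directly in limma, as a contrast between changes, and passed an adjusted p of 0.05. With the higher CDDP dose against untreated cells, the log2 change in SUM1315 minus that in MDA-MB-468 was 1.69 for DHCR7, 1.38 for FDFT1, 0.76 for HMGCS1, 1.72 for IDI1, 1.41 for INSIG1, 0.83 for LSS and 0.71 for SQLE. For OlaR against untreated cells it was 1.74 for DHCR7, 1.16 for FDFT1, 0.57 for IDI1, 2.10 for INSIG1, 0.78 for LSS and 0.79 for SQLE, and it was -0.57 for HMGCS1 and -0.76 for SREBF2. Within SUM1315, the 4 µM CDDP step with olaparib minus the step without it was -1.38 for DHCR7, -0.96 for FDFT1, -0.98 for IDI1 and -1.02 for INSIG1. Within MDA-MB-468 that difference at 2.5 µM was 0.34 for SQLE. The 2.5 µM CDDP step in OlaR cells minus that with olaparib in parental cells was 0.80 for HMGCS1, 0.51 for INSIG1 and 0.35 for SQLE. All comparisons with untreated SUM1315 cells rest on the 3 libraries that stood apart within their line in genes detected and in CD14. Their part in these differences was not tested. CD14 was also lower than untreated in MDA-MB-468 with olaparib and in OlaR cells.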

How the results depend on the processing

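Of the recomputed counts of members called, 369 stayed within 1.5 times the reported count and 51 did not. The study's added limit of a 2-fold change left 3 of 8 in each SUM1315 comparison of olaparib, either CDDP dose or OlaR with untreated cells, 2 for the difference of CDDP steps with and without olaparib, and 0 for the other SUM1315 comparisons that had calls. In MDA-MB-468 it left 1 in OlaR cells against either parental group and 0 elsewhere, and between the lines 4 (higher CDDP dose) and 3 (OlaR). For olaparib with 4 µM CDDP against olaparib in SUM1315, where limma called 0, a pseudocount of 5, the compared groups alone and edgeR with either scaling called 1, and DESeq2 called 2. With the compared groups alone, the combination against 4 µM CDDP gave 2 in SUM1315. CDDP at 4 µM in SUM1315 OlaR cells gave 1 with no filter, the compared groups alone or edgeR with DESeq2 size factors. The lower dose in MDA-MB-468 gave 0 with the compared groups alone, with olaparib and in OlaR cells.

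Leaving out 1 library gave 0 to 1 call for the lower dose in OlaR MDA-MB-468 cells, for the difference of CDDP steps with and without olaparib in that line and for olaparib with 2.5 µM CDDP against 2.5 µM CDDP. It gave 0 to 2 for olaparib with 1 µM CDDP against olaparib, and 1 to 3 for olaparib against untreated cells, with 1 when olaparib replicate 3 was left out. In SUM1315 it gave 1 to 2 for the higher dose in OlaR cells and 0 to 1 for olaparib with 4 µM CDDP against olaparib.

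Same-numbered libraries showed little shared deviation, with correlations from -0.098 to 0.163 in SUM1315 and from -0.047 to 0.043 in MDA-MB-468. The numbers were therefore not used as pairs in the main fit. Such correlations cannot show that the numbers carry no pairing. With the replicate block the counts went from 4 to 5 for the difference of CDDP steps in SUM1315, from 4 to 5 for 1 µM and from 6 to 5 for 2.5 µM CDDP in MDA-MB-468, and stayed the same otherwise. Causes of these changes were not tested. OlaR libraries hold fewer reads, which limits the precision of their values.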

Other observations

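Genes of sterol efflux and of the oxysterol receptors LXR formed a list of 8. ABCA1, the cholesterol exporter, fell by 1.64 on the log2 scale with 4 µM CDDP in SUM1315 (SE 0.14, limma adjusted p = 2.5e-11) and was lower by -1.86 ± 0.14 in OlaR cells (adjusted p = 5.91e-13). Of the 8, 5 were lower and 2 higher in OlaR than in untreated SUM1315 cells (28.7% and 26.0% of all genes). APOE, an apolipoprotein that accepts exported lipid, was lower by -6.43 ± 0.53 (adjusted p = 5.1e-12). In MDA-MB-468, 6 of the listed efflux genes were tested, and 3 were higher and 1 lower in OlaR than in untreated cells (26.0% and 27.5% of all genes). LPCAT3, a phospholipid acyltransferase, rose with olaparib in both lines, by 1.07 ± 0.13 and 0.44 ± 0.09.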
